A study of Lissachatina fulica and Mizuhopecten yessoensis with 12 samples.

Results

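The genes described here belong to the machinery that makes proteins. They are translation initiation and elongation factors, aminoacyl-tRNA synthetases, ribosome biogenesis factors and subunits of RNA polymerases I, II and III. They were compared between the atrium and the ventricle of the scallop Mizuhopecten yessoensis, a bivalve, and of the giant African snail Lissachatina fulica, a gastropod. Members were chosen by gene symbol, by a fixed pattern of symbol prefixes. The pattern itself was set with earlier results of these data known. The pattern found 68 rows among the 6081 rows of both tables, 59 of 4195 in scallop (58 different symbols) and 9 of 1886 in snail. The hearts came from adult animals with the genotype label WT, and each chamber was collected as a whole, so every library mixes the cell types of its chamber. No treatment or age in days is given in the labels. Each chamber of each species had 3 libraries (scallop atrium, scallop ventricle, snail atrium, snail ventricle), 12 in all, made from poly-A selected RNA. Whether the libraries of a chamber came from different animals is not in the labels, so a p-value reflects the spread among libraries, part of which may be technical.

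Translation begins when initiation factors bring the initiator tRNA and the small ribosomal subunit to an mRNA. Elongation factors then deliver charged tRNAs and move the ribosome along, and termination factors release the finished chain. Aminoacyl-tRNA synthetases load each tRNA with its amino acid, and mitochondria use synthetases and factors of their own to translate the few proteins that mitochondrial DNA encodes. Ribosomes are built in the nucleolus, where RNA polymerase I transcribes the large ribosomal RNA precursor and small nucleolar ribonucleoproteins, processing factors and methyltransferases trim, modify and fold it. Heart muscle is known for a high demand for mitochondrial proteins and for changing its protein synthesis with workload.

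The tables list normalized counts, in which each library's read counts were divided by its own size factor, and hold only rows that the authors had selected. In the authors' deposited table the unadjusted p was below 0.05 for all listed rows, and none changed by less than 1.001 on the log2 scale. A member's direction, size and spread are therefore the results, its p is not independent evidence of a difference, and a gene that is not listed is not described. Reads on the listed rows ranged from 10120508 to 21526834 per scallop library and from 606309 to 1165104 per snail library. Members other than POLR2A had 60 to 732688 reads per scallop library and 26 to 1215 per snail library. The files give no gene lengths, so levels are compared between chambers and never between genes. A lower level can reflect fewer cells of a type or less RNA per cell, which cannot be told apart in whole chambers. Muscle markers were present in every library. The 7 listed scallop rows summed to between 358968 and 392328 normalized counts in atria and between 779456 and 1356300 in ventricles, and the 7 snail rows to between 12130 and 18930 in atria and between 58408 and 104486 in ventricles. Scallop ventricle 3 stood apart from ventricles 1 and 2, nearer to the atria, and values without it are given below.

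In scallop, 57 of the 59 members were listed with higher ventricular levels, and 2, POLR2A and EEF2, with higher atrial levels. All 59 had a mean of at least 10 normalized counts over the 6 libraries and entered the limma test across 3927 rows. The threshold was at least a 2-fold change together with an adjusted p (Benjamini-Hochberg) under 0.05, on the log2(normalized count + 1) scale. By that rule 53 members were higher in the ventricle, where 45.6% of all tested rows were, and 2 in the atrium, where 42.0% of all tested rows were. UTP11L, POLR2C, RARS2 and POLR3K did not pass. Their log2 fold changes, given throughout as atrium over ventricle, were −0.996, −0.95, −0.95 and −1.10, with limma adjusted p-values of 0.0336, 0.0303, 0.0515 and 0.0665. The lowest ventricle lay above the highest atrium in 53 members, against 47.7% of all tested rows. In the authors' deposited table, 53 members had an adjusted p under 0.05 toward the ventricle, against 40.3% of all listed rows with an adjusted p. Without ventricle 3, 57 members passed toward the ventricle and 1 toward the atrium. Fits on 5 libraries that left out another one called fewer members toward the ventricle, with 21, 28 and 33 without atria 1, 2 and 3 and 25 and 35 without ventricles 1 and 2. Of all 3927 tested rows, 1918 passed toward the ventricle without ventricle 3. In the other fits, in the same order, 909, 942, 1202, 1186 and 1161 did. The calls also depended on the scaling of the libraries, as shown further on.

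The ventricular differences were of closely similar size. The 53 log2 fold changes past the threshold ran from −1.84 to −1.01 with quartiles of −1.34 and −1.16, and the ratio of the ventricular to the atrial mean ran from 2.03 in EIF3G to 3.83 in UTP23. The median over all 59 members was −1.23 and over all tested rows −1.01. Among the 2141 tested rows with higher ventricular levels of any kind the median was −1.35. Of these rows 1792 passed toward the ventricle and 1873 did not overlap between chambers. High counts of either in the role groups below are therefore shared with ventricular rows in general.

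**Figure D1:**
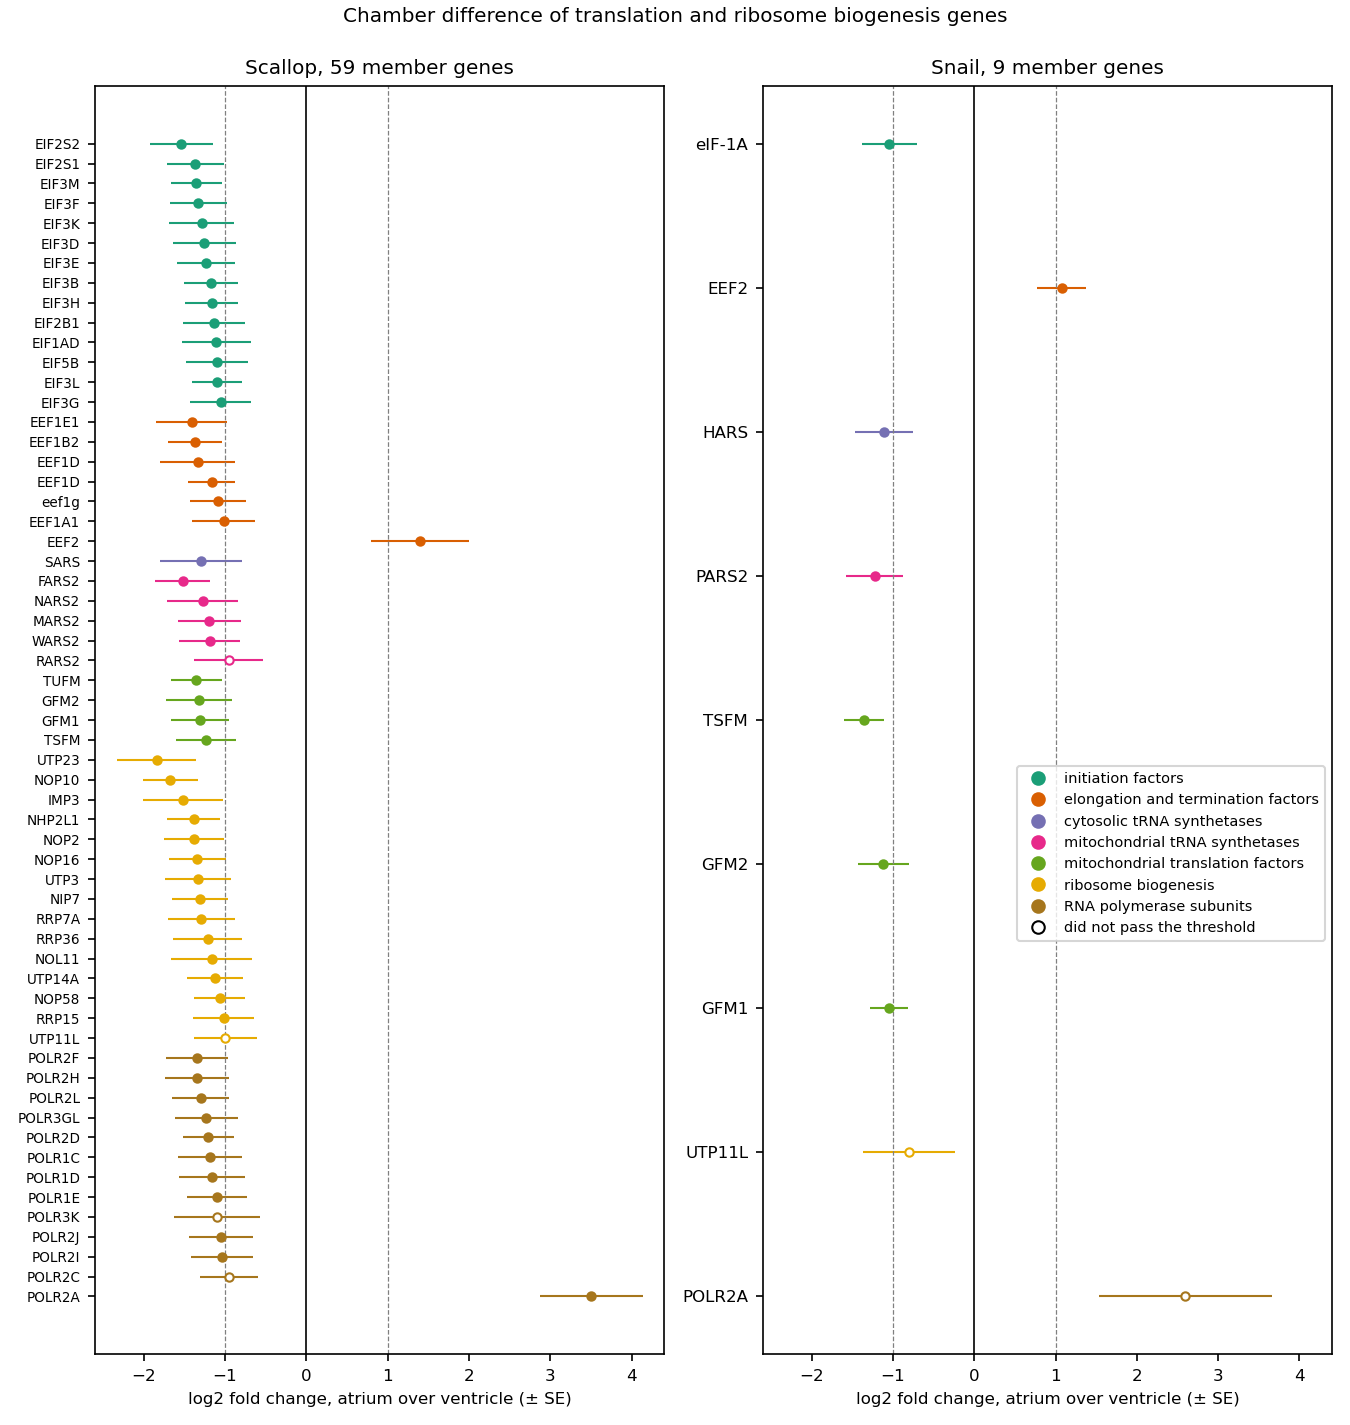
Log2 fold change, atrium over ventricle, of each member in scallop and in snail, with its standard error (3 libraries a chamber); filled points passed the threshold and dashed lines mark a 2-fold change. In scallop 57 of 59 points lie below 0, and EEF2 and POLR2A lie above it in both species.

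All 14 members grouped by symbol as initiation factors, EIF1AD among them, passed toward the ventricle in scallop, at a median of −1.20. The share over all tested rows was 45.6%. Of the subunits of eIF3, the scaffold that holds the initiation complex on the small ribosomal subunit, 9 were listed (EIF3B, EIF3D, EIF3E, EIF3F, EIF3G, EIF3H, EIF3K, EIF3L and EIF3M). Their log2 fold changes lay between −1.35 and −1.05, a range no wider than the standard error of 0.35 of EIF3E. EIF3E stood at 7573, 9434 and 8791 in the atria and 29744, 21435 and 12823 in the ventricles. EIF3M stood at 4179.7, 4328 and 5037 in the atria and 14798, 12391 and 8316 in the ventricles (log2 fold change −1.35 ± 0.31 SE, limma adjusted p = 0.0069). In both genes ventricle 1 was the highest and ventricle 3 the lowest of the ventricles, and the chambers did not overlap. All 9 eIF3 genes had this order of the ventricles, and only EIF3G overlapped between chambers, with atrium 2 at 3116 and ventricle 3 at 3057.

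EIF2S1 and EIF2S2 encode the alpha and beta subunits of eIF2, which carries the initiator tRNA. EIF2S2 showed the widest gap among the initiation factors. It stood at 3099.7, 4432 and 4373 in the atria and 17932, 12332 and 6665 in the ventricles (−1.54 ± 0.39, limma adjusted p = 0.00924). EIF2S1 stood at 3272 ± 458 (SD, n = 3) in atria and 8803 ± 3111 in ventricles. Both passed without any 1 of the 6 libraries. EIF2B1, the alpha subunit of the exchange factor that recharges eIF2, stood at 359.5 ± 55.5 and 814.9 ± 266. EIF5B, which joins the ribosomal subunits at the start codon, stood at 1765 ± 255 and 4039.8 ± 1866. EIF1AD, named for a domain it shares with the factor eIF1A, overlapped between chambers, with atrium 3 at 1122 and ventricle 3 at 1039.

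The subunits of eEF1, which delivers aminoacyl-tRNAs to the ribosome and is reloaded with GTP by its own exchange subunits, were all higher in the scallop ventricle. EEF1A1, the delivering subunit, stood at 316392, 326537 and 286058 in the atria and 810525, 686116 and 436930.0 in the ventricles. The chambers did not overlap, and its log2 fold change of −1.01 ± 0.39 lay at the 2-fold limit (limma adjusted p = 0.0323). It lost the call without any library but ventricle 3. Its direction turned under quantile normalization (0.07) and when ribosomal protein genes were set to equal medians in all libraries (0.22), as did that of eef1g (0.01 and 0.15). EEF1B2, an exchange subunit, stood at 8985, 9168 and 7715 in the atria and 29686, 25349 and 14554 in the ventricles (−1.37 ± 0.34, limma adjusted p = 0.00854). Eef1g, listed in lower case, encodes the gamma subunit and stood at 30368 ± 3619 and 66628 ± 22948. EEF1D, another exchange subunit, had 2 rows. Miz0128300.1 stood at 4597 ± 385 and 10399 ± 1953 (−1.16), and Miz0277380.1 at 265.8 ± 121 and 643.3 ± 186 (−1.33). How reads were shared between near-identical copies is not given in the sources used here. EEF1E1, which is known in mammals as a scaffold of the multi-synthetase complex, had the largest fold change toward the ventricle in this role group, at 219.0 ± 27.5 against 619.6 ± 246 (−1.41 ± 0.44).

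EEF2, named for the factor that moves the ribosome by 1 codon, went the other way in scallop. It stood at 249.3, 895.0 and 301.0 in the atria and 283.2, 90.2 and 142.6 in the ventricles. Atrium 2 was far above the other atria, and ventricle 1 lay within the atrial range, so the chambers overlapped. The log2 fold change of 1.40 ± 0.60 passed narrowly (limma adjusted p = 0.0469, and 0.083 in the authors' deposited table) and was 0.83 without atrium 2 (limma adjusted p = 0.221). The call was lost in 5 of the 6 fits that left out a library, in all but the fit without ventricle 1. The ratio of EEF2 to EEF1A1 within a library is unaffected by a factor that multiplies all genes of that library, as in the TMM and ribosomal scalings, though not by quantile normalization. On the log2 scale, in the normalized counts as deposited, it ran from −10.30 to −8.51 in the atria and from −12.88 to −11.48 in the ventricles, without overlap. Both genes were listed for a chamber difference, in opposite directions. A gap in their ratio follows from that selection and is no further evidence for EEF2.

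The mitochondrial translation genes were higher in the scallop ventricle, 8 of 9 past the threshold and all 9 without overlap between chambers. The shares over all tested rows were 45.6% and 47.7%. TUFM, the mitochondrial counterpart of eEF1A, stood at 870.5, 754.6 and 1012 in the atria and 1976, 2678 and 2101 in the ventricles (−1.35 ± 0.31, limma adjusted p = 0.00691). TSFM, its nucleotide exchange factor, stood at 337.7 ± 35.2 and 808.7 ± 196. GFM1, the mitochondrial elongation factor that moves the ribosome, stood at 710.5 ± 51.9 and 1833 ± 695, and GFM2, which acts in mitochondrial ribosome recycling, at 438.3 ± 6.78 and 1179 ± 547. The atria of these genes were closely grouped, while the ventricles of GFM1 and GFM2 spread over more than 1000 normalized counts.

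The mitochondrial tRNA synthetases listed were those for phenylalanine (FARS2), methionine (MARS2), asparagine (NARS2), arginine (RARS2) and tryptophan (WARS2). FARS2 stood at 323.2, 334.3 and 384.3 in the atria and 1031, 1087 and 877.4 in the ventricles, where all 3 libraries were close to each other (−1.52 ± 0.34, limma adjusted p = 0.00582). It was the widest gap of the 5 and passed under a further TMM scaling (−1.05) and under quantile normalization (−1.21). MARS2, NARS2 and WARS2 had log2 fold changes of −1.19, −1.27 and −1.19. RARS2 stood at 187.6, 166.2 and 209.6 in the atria and 467.9, 413.5 and 247.7 in the ventricles and was the member of the 5 that did not pass. SARS, the cytosolic serine-tRNA synthetase, was the sole cytosolic synthetase listed in scallop. It stood at 690.3, 731.7 and 1060.0 in the atria and 4218, 2039 and 930.0 in the ventricles, so that ventricle 3 lay within the atrial range and ventricle 1 far above all others (−1.30 ± 0.50, limma adjusted p = 0.0335). Its call was lost without any library but ventricle 3.

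Of 15 ribosome biogenesis factors 14 passed toward the scallop ventricle (45.6% of all tested rows), at a median of −1.31. None of the 15 factors overlapped between chambers, where 47.7% of all tested rows had the ventricle higher without overlap. They held the members with the largest ventricular fold changes of all, UTP23 and NOP10. UTP23, a factor of the small-subunit processome known from yeast, stood at 75.5, 81.2 and 101.1 in the atria and 379.4, 427.1 and 180.2 in the ventricles (−1.84 ± 0.49, limma adjusted p = 0.0111). NOP10, a core protein of the H/ACA particles that convert uridines of ribosomal RNA to pseudouridine, stood at 656.2, 790.9 and 874.1 in the atria and 3225, 2539.9 and 1791 in the ventricles (−1.67 ± 0.34, limma adjusted p = 0.00423). UTP23 and NOP10 passed without any 1 library, under the TMM scaling (−1.37 and −1.20) and under quantile normalization (−2.29 and −1.14). NHP2L1, a box C/D and spliceosomal RNA-binding protein, stood at 4723 ± 440 and 12719 ± 3764 (−1.39).

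Other factors of the small subunit lay close to these. IMP3, a partner of the U3 small nucleolar RNA, stood at 79.6 ± 26.7 and 226.7 ± 60.5 (−1.51). UTP3 stood at 1258 ± 148 in atria and 5931, 2194 and 2409 in the ventricles, with ventricle 1 more than 2 times the others. NOL11, RRP7A, RRP36 and UTP14A had log2 fold changes of −1.16, −1.29, −1.21 and −1.12. UTP11L stood at 394.7, 426.0 and 452.7 in the atria and 1217, 893.2 and 557.4 in the ventricles, just short of the 2-fold limit. Of the factors of the large subunit, NOP2, an RNA methyltransferase, stood at 962.4 ± 34.5 and 2671 ± 1196, NIP7 at 970.3 ± 121 and 2483 ± 778, and NOP16 at 865.8 ± 151 and 2248 ± 655. These genes passed without any 1 library. RRP15, also a factor of the large subunit, and NOP58, a core protein of the box C/D methylation particles, had smaller gaps of −1.02 and −1.07, and in both of them ventricle 2 and not ventricle 3 was the lowest ventricle.

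Of 13 RNA polymerase subunits 10 passed toward the scallop ventricle and 1, POLR2A, toward the atrium, against 45.6% and 42.0% of all tested rows. POLR1C and POLR1D, which polymerases I and III share, and POLR1E, a polymerase I subunit, had log2 fold changes of −1.18, −1.16 and −1.10. POLR2F, POLR2H and POLR2L, which all 3 nuclear polymerases share, had log2 fold changes of −1.34, −1.34 and −1.30. POLR2F stood at 1015, 1204 and 1122 in the atria and 3553, 3911 and 1618 in the ventricles. POLR2D, a stalk subunit of polymerase II, had a ventricle 3 near the others, at 929.0, 693.5 and 841.4 in the atria and 2075, 1977 and 1622 in the ventricles (−1.20 ± 0.31, limma adjusted p = 0.0103). POLR2I, POLR2J and POLR2C, subunits of polymerase II, had log2 fold changes of −1.03, −1.05 and −0.95. POLR3GL, a polymerase III subunit, stood at 324.7 ± 52.6 and 784.6 ± 253, and POLR3K, another, overlapped between chambers with atrium 2 at 141.4 and ventricle 3 at 132.3.

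POLR2A, named for the largest, catalytic subunit of RNA polymerase II, stood at 241.2, 186.3 and 216.3 in the atria of scallop and 9.96, 13.5 and 41.3 in its ventricles. All atria lay far above all ventricles, with 195 to 297 reads per atrium and 9 to 44 per ventricle (3.51 ± 0.63, limma adjusted p = 0.0026). The call held without any 1 library, with log2 fold changes from 3.11 to 4.09. It also held under the further TMM scaling (3.95), quantile normalization (2.63) and the ribosomal rescaling (4.67). The ribosomal rescaling was bound to raise the value, since the ribosomal protein genes were all higher in the ventricle. TMM scaling, computed from selected rows, raised it too, and neither is further evidence. Relative to the geometric mean of the other 7 polymerase II subunits in the same library, in the normalized counts as deposited, POLR2A was at −1.89 to −1.44 on the log2 scale in atria and −7.45 to −4.62 in ventricles. The mean difference was 4.68. A single factor per library leaves this ratio as it is, apart from the 1 added to each count before the logarithm. Quantile normalization can change it. The 7 other subunits were listed because they were higher in the ventricle, so dividing by them was bound to widen the atrial difference of POLR2A. The files give only the symbol and the identifier Miz0058820.1, so whether the row covers the whole subunit was not tested.

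**Figure D2:**
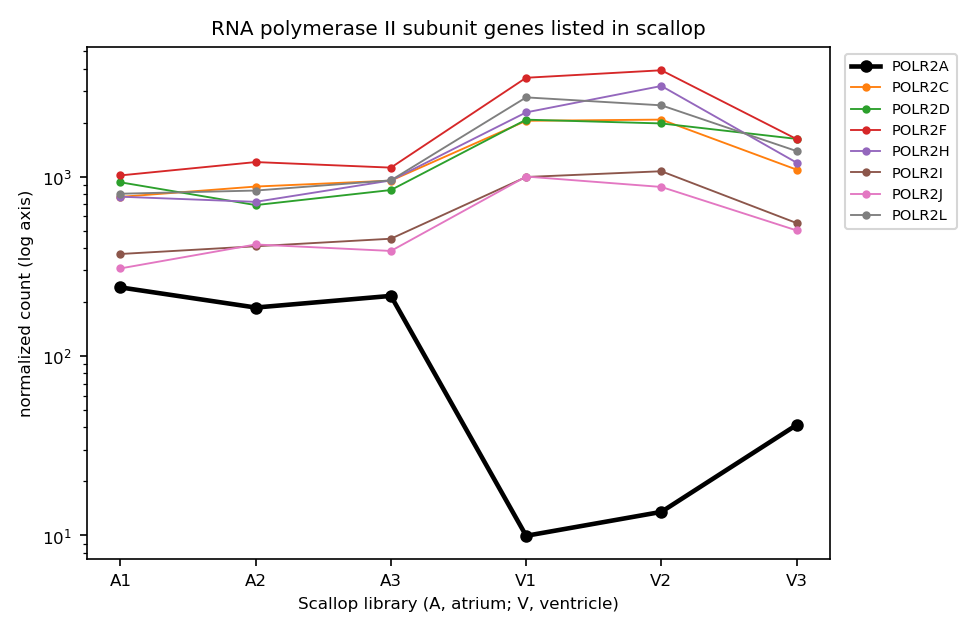
Normalized counts, on a log axis, of the 8 listed RNA polymerase II subunit genes in the 3 atria and 3 ventricles of scallop; lines join the values of 1 gene and give no order to the libraries. POLR2A falls from 186.3 or more in atria to 41.3 or less in ventricles, while the 7 other subunits are higher in all ventricles than in all atria.

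Members differed in where ventricle 3 stood. On the log2 scale, with the mean of ventricles 1 and 2 at 0% and the atrial mean at 100%, ventricle 3 lay at a median of 54.6% over the 59 members and 64.7% over the 62 listed cytosolic ribosomal protein genes. The medians were 59.3% for initiation factors, 57.3% for RNA polymerase subunits, 52.7% for elongation factors and 49.3% for ribosome biogenesis. For the 9 mitochondrial synthetases and factors the median was 28.4%, with a range from 9.35% to 67.1%. Over all tested rows it was 38.1%, and over the 2141 tested rows with higher ventricular levels 44.4%. TUFM lay at 9.35%, UTP14A at 8.68%, FARS2 at 16.8% and POLR2D at 24.5%, while SARS lay at 89.4%. These positions are descriptions, and they move with the scaling of the libraries. Ventricle 3 was the lowest ventricle in 51 of the 59 members and ventricle 1 the highest in 43.

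**Figure D3:**
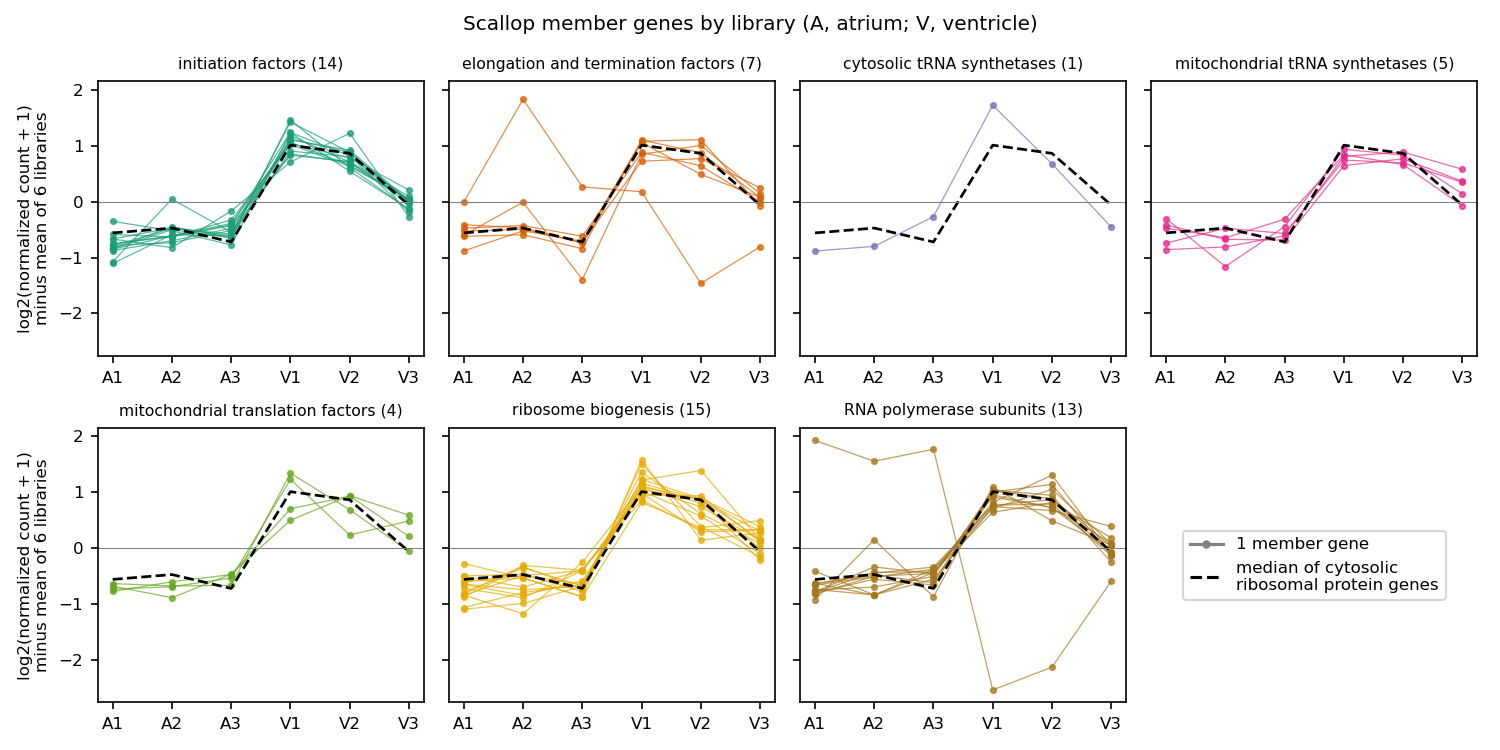
Log2(normalized count + 1) of each scallop member minus its mean over the 6 libraries, by role; A and V are atrium and ventricle libraries, lines join the values of 1 gene and the dashed line is the median of 62 cytosolic ribosomal protein genes. Most members follow the dashed line, ventricle 3 lies between the other ventricles and the atria, and POLR2A and EEF2 run the other way.

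The ventricular calls in scallop depended on how the libraries were scaled. A further TMM scaling of the listed rows left 4 of 59 members past the threshold toward the ventricle (UTP23, NOP10, EIF2S2 and FARS2), against 628 of all 3927 tested rows. The median over all members was −0.76. Quantile normalization left 13 of 59, against 1131 of 3927, with a median of −0.74. Under both of these scalings members passed less often than tested rows in general. Both were computed from rows selected for a chamber difference, and 54.5% of the tested rows were higher in the ventricle. With no unselected rows to scale on, neither can decide whether the deposited scaling was right. Neither turned the sign of a member other than EEF1A1 and eef1g under quantile normalization. When the libraries were rescaled to equal medians of the cytosolic ribosomal protein genes, no member passed toward the ventricle, the median was 0.00 and the sign turned in 30 of 57 members (limma, 2 of 59 members at an unadjusted p under 0.05, EEF2 and POLR2A). The same settings moved the median of all tested rows from −1.01 to −0.54, −0.36 and 0.22. Relative to ribosomal protein transcripts, no chamber difference of the other 57 members was detectable in these 6 libraries. The 62 ribosomal protein genes were listed rows too, selected for a chamber difference and all higher in the ventricle. Rescaling to them was bound to move ventricular members toward 0 and POLR2A and EEF2 further up. It therefore does not test whether members differ, or whether those 2 genes keep their direction. The ribosomal protein genes themselves had a median log2 fold change of −1.17 with quartiles of −1.27 and −1.11, next to −1.23 for the members. POLR2A and EEF2 kept their atrial direction under all 3 scalings, although EEF2 did not pass under quantile normalization (limma adjusted p = 0.083). As a share of the reads on listed rows, which a single factor per library does not change, members took 4.88%, 4.70% and 4.58% in the atria and 5.05%, 5.13% and 5.24% in the ventricles. Without EEF1A1 the shares were 1.34%, 1.32% and 1.37% against 1.64%, 1.58% and 1.62%. Neither share overlapped between the chambers, but the members and the rows they are set against were all selected for chamber differences. With 57 of 59 members listed as higher in the ventricle, that selection favours a larger ventricular share, which is no further evidence.

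**Figure D4:**
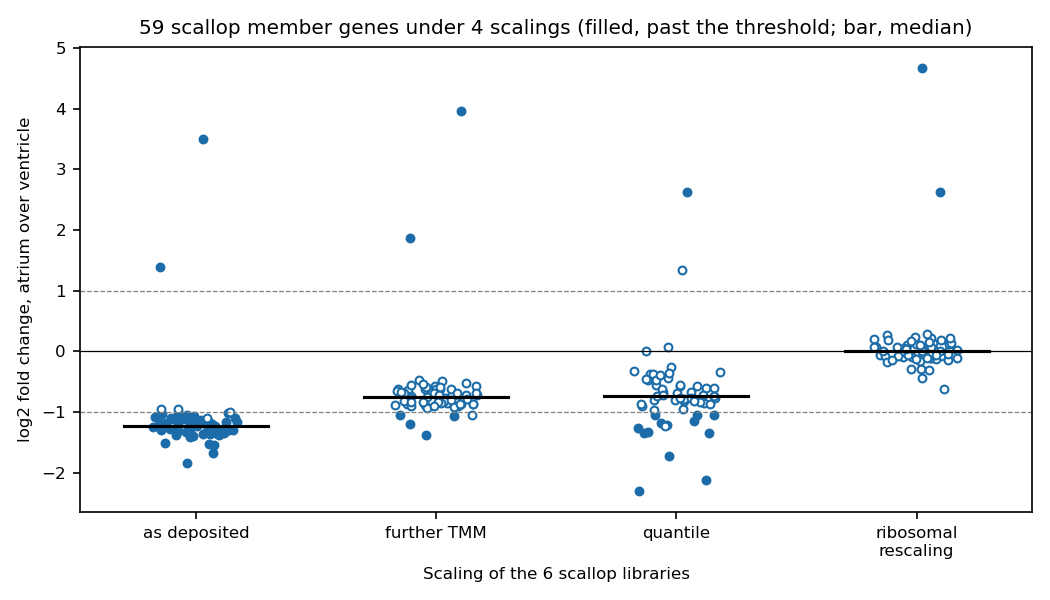
Log2 fold change, atrium over ventricle, of the 59 scallop members with the libraries as deposited and under 3 other scalings; filled points passed the threshold, dashed lines mark a 2-fold change and bars are medians. The median moves from −1.23 to −0.76, −0.74 and 0.00, and POLR2A stays above 2 in all 4.

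Genes of the same pathways outside the symbol pattern lay on the same side in scallop. Of all tested rows 45.6% passed toward the ventricle and 42.0% toward the atrium, and of the 2141 with higher ventricular levels 1792 passed. Passing thus adds little once a row is listed on that side. Of 17 listed neighbours in translation and tRNA modification 16 passed toward the ventricle and none toward the atrium, at a median of −1.28. Among them ABCE1, which recycles ribosomes, stood at 4641, 5838 and 6175 in the atria and 16196, 13036 and 8009 in the ventricles. MTIF2, the mitochondrial initiation factor, had a log2 fold change of −1.39. Of 29 listed ribosome biogenesis neighbours 28 passed toward the ventricle and none toward the atrium, at a median of −1.18. NCL, the nucleolar protein nucleolin, stood at 9533, 10404 and 13690.1 in the atria and 28889, 30775 and 17021 in the ventricles, and GAR1, a partner of NOP10 in H/ACA particles, had a log2 fold change of −1.16. MTRF1L, a mitochondrial release factor, and NOC4L did not pass (limma adjusted p = 0.05003 and 0.0516). TWISTNB, a polymerase I subunit, and CRCP, a polymerase III subunit, both passed, at −1.42 and −1.28. The scaling moved these counts as well. A further TMM scaling left 5 translation and 3 biogenesis neighbours past the threshold toward the ventricle, against 628 of all 3927 tested rows. Quantile normalization left 9 and 2, against 1131 of 3927, and neither scaling turned a sign. The ribosomal rescaling left none of either, and the sign turned in 6 of 17 and 20 of 29 rows.

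Markers of other cells moved in the same libraries. Of all tested scallop rows 45.6% passed toward the ventricle and 42.0% toward the atrium. Of 18 listed scallop rows of proliferating cell markers 15 passed toward the ventricle and none toward the atrium, and their summed level ran from 3315 to 6117 in atria and from 11571 to 20108 in ventricles. The 7 muscle rows all passed toward the ventricle, 4 of 10 tested hemocyte and immune rows passed toward the ventricle and 5 toward the atrium, and 5 of 6 tested neuron rows passed toward the atrium. Summed hemocyte levels ran from 48017 to 65037 in atria and from 25669 to 53254 in ventricles, and summed neuron levels from 5103 to 5810.3 and from 1705 to 2692. No defining marker of muscle, hemocytes or proliferating cells was at 0 in all libraries of a chamber, and 1 neuron row was at 0 in all ventricles. Under the ribosomal rescaling no muscle or proliferation row passed, and the sign turned in 3 of 7 and 8 of 18 of them. The part of these cells in the differences above was not tested. Both listed TBX20 rows, of cardiac factors, passed toward the ventricle, and the germ cell marker SYCP1 did not pass.

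In snail, 7 of 9 members were listed with higher ventricular levels and 2, EEF2 and POLR2A, with higher atrial levels. All 9 entered the limma test across 1489 rows. Toward the ventricle 6 passed, where 37.0% of all tested rows did, and toward the atrium 1, where 46.9% did. The chambers did not overlap with the ventricle higher in 6 members, against 39.6% of tested rows, and 6 had an adjusted p under 0.05 toward the ventricle in the authors' deposited table, against 28.6% of listed rows. Each of these counts rests on few genes.

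The mitochondrial translation genes made up 4 of the 6 snail calls toward the ventricle, a direction in which 37.0% of all tested rows passed. TSFM stood at 68.6, 78.9 and 58.5 in the atria and 172.7, 201.5 and 155.9 in the ventricles (−1.35 ± 0.24, limma adjusted p = 0.00365) and passed without any 1 library. GFM1 stood at 65.7, 66.7 and 75.8 in the atria and 142.5, 167.4 and 126.3 in the ventricles (−1.05 ± 0.24, limma adjusted p = 0.00758). GFM2 stood at 98.9 ± 8.83 and 224.7 ± 84.9, with ventricle 2 the highest at 321.1. PARS2, the mitochondrial proline-tRNA synthetase, stood at 28.0 ± 10.8 and 64.0 ± 7.71. In each of these genes every ventricle lay above every atrium, as in 39.6% of all tested rows. Under a further TMM scaling TSFM and PARS2 passed and GFM1 and GFM2 did not, with log2 fold changes of −0.87 and −0.93.

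The other snail calls toward the ventricle were eIF-1A, which helps the small subunit find the start codon, and HARS, the histidine-tRNA synthetase. The eIF-1A gene stood at 80.3, 128.9 and 63.8 in the atria and 142.5, 187.9 and 220.4 in the ventricles (−1.04 ± 0.34, limma adjusted p = 0.0249), and its call was lost in 4 of the 6 fits on 5 libraries. HARS stood at 34.3, 74.3 and 59.2 in the atria and 123.1, 134.9 and 94.1 in the ventricles. UTP11L did not pass and rested on ventricle 2, at 130.6, 93.3 and 110.3 in the atria and 115.5, 491.9 and 126.3 in the ventricles. Without ventricle 2 its log2 fold change went from −0.80 to −0.13, and ventricular calls among the members went from 6 to 2 (3 without atrium 1).

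EEF2 was higher in the snail atrium, at 448.9, 921.3 and 597.6 in the atria and 308.8, 326.2 and 260.7 in the ventricles (1.08 ± 0.30, limma adjusted p = 0.0158). The chambers did not overlap. The fold change fell under the 2-fold limit without atrium 2 (0.80) and without ventricle 3 (0.98). POLR2A stood at 36.5, 33.4 and 22.6 in the atria and 20.5, 0 and 5.37 in the ventricles, from 50, 44 and 34 reads and 19, 0 and 4 reads. The lowest atrium and the highest ventricle were 22.6 and 20.5, and it did not pass (2.60 ± 1.07, limma adjusted p = 0.0528). The size of this fold change rested on the ventricle with no read. It was 1.41 without ventricle 2 (limma adjusted p = 0.083) and 3.63 without ventricle 1, where it passed (limma adjusted p = 0.0203). It was 1.27 with a pseudocount of 10, 1.06 under quantile normalization, 1.79 by DESeq2 and 1.74 by edgeR. Hemocyte and immune markers moved toward the snail atrium at the same time, with 10 of 14 tested rows past the threshold. Their summed levels were 5701 to 14752 in atria against 428.6 to 842.0 in ventricles, where 3 rows were at 0 in all libraries. RUNX1, too low to be tested, went the other way. In MRC1 and in CD109 (Afu014406) atrium 2 lay below all ventricles. Of 5 tested neuron rows 3 passed toward the atrium and 2 toward the ventricle. Among cardiac factors GATA6 passed toward the atrium and HAND2 toward the ventricle. Muscle markers moved toward the ventricle in 6 of 7 rows, where 37.0% of all tested rows passed, against 46.9% toward the atrium. The part of these cells in the differences was not tested. No cytosolic ribosomal protein gene was among the listed snail rows. Of the pathway neighbours 3 were listed in snail. GUF1, a mitochondrial translation factor, passed toward the ventricle (−1.003) and HEATR1, of the small-subunit processome, toward the atrium (1.202, limma adjusted p = 0.0429), while RRS1 did not pass (−0.95).

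Members with the same symbol in both tables were EEF2, POLR2A, GFM1, GFM2, TSFM and UTP11L. All 6 had the same direction in both species, where 79.3% of the 328 symbols found in both tables did. Levels are not comparable between tables that were scaled apart, so only the chamber differences were compared, by the species-by-chamber interaction in limma. None of the 6 passed at an adjusted p under 0.05, against 23.5% of the 328 symbols, and none had an unadjusted p under 0.05 at the pseudocount of 1. The intervals were wide. For GFM1 the scallop difference minus the snail difference was −0.25 (95% interval −1.17 to 0.66), for TSFM 0.12 (−0.82 to 1.06) and for GFM2 −0.20 (−1.31 to 0.91). For EEF2 it was 0.32 (−1.18 to 1.82), for UTP11L −0.19 (−1.64 to 1.25) and for POLR2A 0.91 (−1.86 to 3.67), so differences of more than 2-fold between the species were within the interval for every one of these 6 genes. The value for POLR2A moved with the snail ventricle at 0, to 1.68 with a pseudocount of 10 (95% interval 0.26 to 3.11, limma unadjusted p = 0.024, adjusted p = 0.0936), 2.09 without snail ventricle 2 (limma adjusted p = 0.164) and −0.12 without snail ventricle 1 (limma adjusted p = 0.996). Symbols are annotation names and were not checked to be orthologs.

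**Figure D5:**
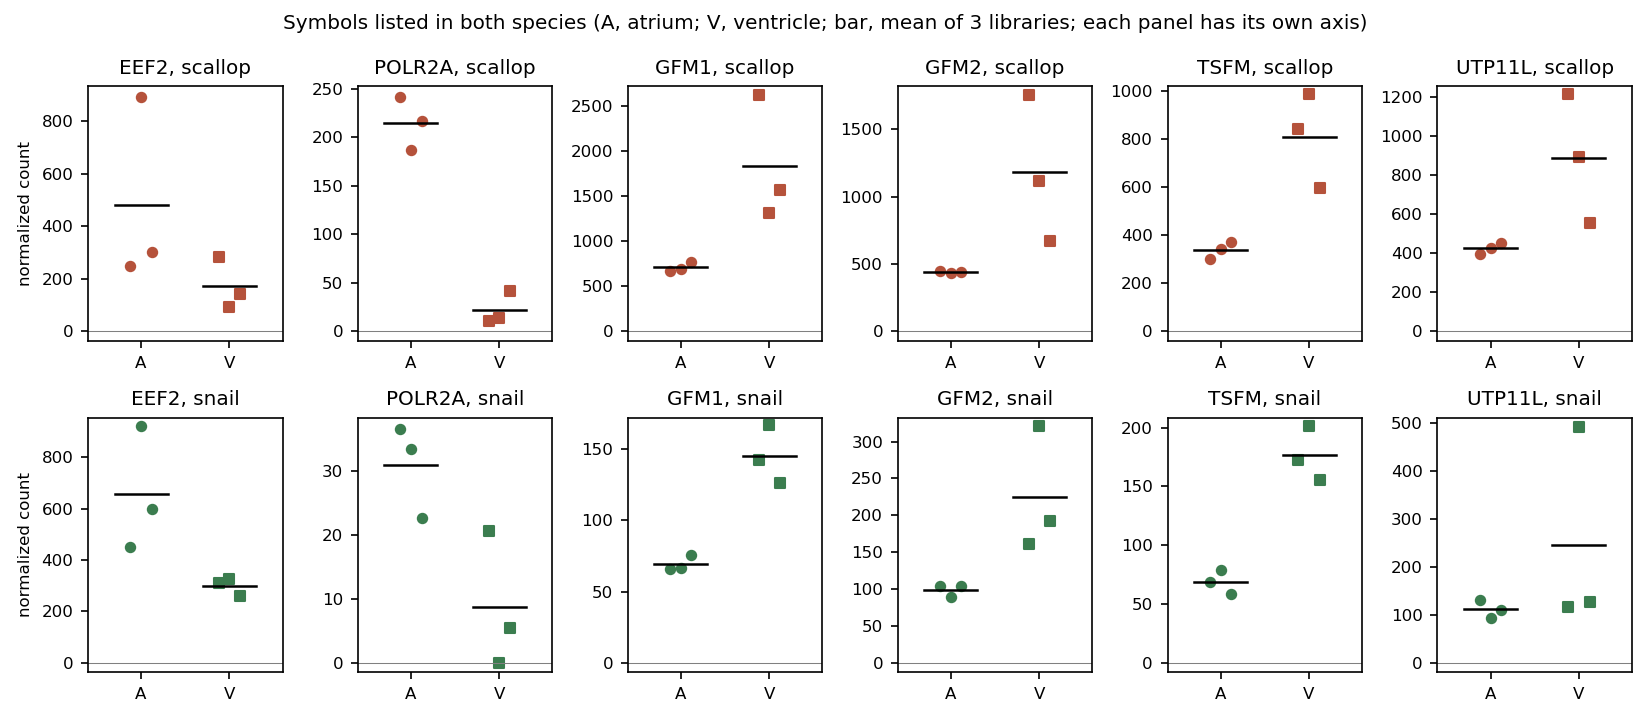
Normalized counts in the atria (A) and ventricles (V) of scallop and snail for the 6 member symbols listed in both tables; points are libraries, bars are means of 3 libraries and each panel has its own axis. EEF2 and POLR2A have higher atrial means and GFM1, GFM2, TSFM and UTP11L higher ventricular means in both species.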

How the data were processed

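Gene symbols, member rules and gene lists were chosen with earlier results of these data known. Per the submitters' processing notes, which give neither steps nor sequence, the tools were StringTie 1.3.3b, DESeq2 1.20.0, HISAT2 2.0.5 and featureCounts 1.5.0. Genome builds, annotations and strandedness are not given in the sources used here. The authors deposited a signal per library, namely counts divided by 1 size factor, since 100% of values in each library were whole multiples of 1 step (tolerance 0.01 read). The authors' deposited log2 fold changes are ventricle over atrium, the deposited score is their ratio to the standard error, and p-values were deposited raw and adjusted.

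Differences were fitted per species in R 4.3.3 by limma 3.58.1 with a trended prior variance. Values were log2(normalized count + 1), a scale on which the fold change of a low gene depends on the pseudocount and on single libraries near 0, taken over all rows with a mean of at least 10, with Benjamini-Hochberg adjustment over all of them. As alternatives, edgeR 4.0.16 and DESeq2 1.42.0 were run on the recovered reads under the authors' size factors. Other alternatives were 2 pseudocounts, no filter, 3 scalings, a replicate block and each library left out. The 3 scalings were computed from the selected rows alone. Fits were tested on simulated data. Members were named by role group, by highest mean and by largest change, and all members outside the common direction or threshold were named. Marker patterns also took in 7 symbols of other proteins, such as TPMT, which were left out once the symbols had been read. Intervals are at 95%. Total library sizes are unknown, since the tables hold selected rows.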

Additional observations from a re-analysis of the deposited data

How the results depend on the processing

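Pseudocounts of 0.5 and 10, no filter on low values, edgeR and DESeq2 on recovered reads put between 52 and 56 scallop members past the threshold toward the ventricle. POLR2C and UTP11L passed by both count tests and RARS2 by DESeq2, none of which passed by limma. EdgeR called 55 and 2 members, and 1915 and 1392 of 3927 rows, toward ventricle and atrium. The ventricular count was 13 with quantile normalization, 4 with the TMM scaling and 0 with the ribosomal rescaling, where 1131, 628 and 60 of all 3927 tested rows passed. It ran from 21 to 57 without 1 library (21, 28 and 33 without atria 1, 2 and 3, and 25 and 35 without ventricles 1 and 2). Of 53 calls 19 held in all 6 of those fits. Fewer libraries also leave fewer degrees of freedom. The atrial count of 2 became 1 without a filter and under quantile normalization, and ran from 1 to 2 without 1 library; POLR2A was the call that held in each. With the replicate number as a block, 44 scallop members passed toward the ventricle and 2 toward the atrium, and 6 and 1 in snail. Deviations of same-numbered libraries correlated at −0.16 to −0.12 in scallop and −0.09 to 0.06 in snail. Differently numbered libraries ran from −0.03 to 0.16 and from −0.18 to 0.16. Deviations from means of 3 libraries, over selected rows, cannot decide whether same-numbered libraries share an animal, and the labels do not say.

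In snail, the ventricular count of 6 was 2 under the TMM scaling and with a pseudocount of 10 (423 and 455 of 1489 tested rows) and ran from 2 to 6 without 1 library. The atrial count of 1 was 2 under those same settings, with POLR2A added, and ran from 0 to 2. EdgeR called 6 and 1 snail members, and 572 and 750 of 1489 rows. The ribosomal rescaling was not run in snail, which lists no such gene. The species comparison called 0 of 6 members in every setting run, with 1, POLR2A, at an unadjusted p under 0.05 with a pseudocount of 10.

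After the ribosomal rescaling 30 scallop members turned sign, to log2 fold changes of 0.13 (EIF1AD), 0.28 (RARS2), 0.021 (RRP36), 0.050 (POLR1C), 0.20 (POLR2I), 0.00076 (TSFM), 0.046 (WARS2), 0.14 (POLR1E), 0.14 (EIF3L), 0.21 (RRP15), 0.077 (POLR1D), 0.29 (POLR2C), 0.19 (POLR2J), 0.24 (UTP11L), 0.073 (EEF1D, Miz0128300.1), 0.15 (eef1g), 0.11 (UTP14A), 0.064 (EIF3B), 0.13 (POLR3K), 0.030 (POLR2D), 0.0016 (EIF3E), 0.14 (EIF5B), 0.071 (NOL11), 0.041 (MARS2), 0.071 (EIF3H), 0.17 (NOP58), 0.0046 (POLR3GL), 0.22 (EEF1A1), 0.10 (EIF2B1) and 0.18 (EIF3G). Under quantile normalization EEF1A1 (0.071) and eef1g (0.010) turned. The cause of these changes was not tested.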
